A study of Mus musculus with 20 samples.

Results

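The comparison described here sets splenic B cells that lack TAK1 against wild type splenic B cells after 24 h of anti-IgM, which stimulates B cells by cross-linking their receptor. It uses the 4 arrays whose titles name this time point, 2 of each genotype, out of 20 arrays in the series (10 groups of 2 arrays, covering 2 genotypes and 5 times). Both groups were C57BL/6 mice of 8 to 12 weeks with sex given as mixed. TAK1-deleted cells are labelled mb-1/TAK1f/f, and the wild type cells mb-1/TAK1+/+, so that mb-1, the gene whose locus drives the deleter in the B lineage, is named for the controls as well. All cells were enriched by magnetic removal of CD43-positive cells, grown in RPMI with serum, and given anti-IgM at 10 µg/ml for 1, 3, 6 or 24 h or left without it (0 h). Deletion driven by mb-1 begins in B cell development and is restricted to the B lineage, so other cells that pass the CD43 depletion keep TAK1 in both groups. The labels do not say whether the arrays of a group came from separate mice or cultures, and the p-values then measure the spread between these arrays, which may be technical.

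TAK1, encoded by Map3k7, is a MAP3 kinase that relays signals from the B cell receptor and from Toll-like, interleukin and TNF family receptors to the IκB kinase complex and to JNK and p38. The IκB kinase complex releases NF-κB dimers, which in B cells induce survival genes such as Bcl2l1 and feedback inhibitors such as Nfkbia and Tnfaip3. A resting splenic B cell that is stimulated through its receptor leaves quiescence, enlarges, makes ribosomes and nucleotides, and enters S phase and mitosis about a day later. Spleen cells of other lineages lack that receptor.

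Values are RMA log2 values and differences are TAK1-deleted minus wild type on that scale, each with its limma standard error (±), and both groups have 2 arrays. A gene is called when its adjusted p is below 0.05, and "higher", "lower", "rose" and "fell" are used of called genes. At 24 h 1462 of 11968 genes were called (12.2%), 842 higher (7.04%) and 620 lower (5.18%) in the TAK1-deleted cells. The called differences ran from a rise of 5.08 to a fall of 4.07, with medians of 0.72 for the rises and -0.64 for the falls. Of the called genes 229 were at least 2-fold higher (1.91% of all genes) and 66 at least 2-fold lower (0.551%), and the median difference over all genes was 0.00. The arrays of the groups did not overlap for 6106 genes (51%), the called ones among them. The counts moved when single arrays were left out. Those fits had no replicate block, so leaving out an array also unbalanced the replicate numbers between the genotypes. The part of that imbalance in the lost calls, here and below, was not tested. Without wild type replicate 1 the called genes numbered 716 (574 higher, 142 lower), without TAK1-deleted replicate 2 they numbered 699 (522 and 177), without TAK1-deleted replicate 1 they numbered 769 (430 and 339), and without wild type replicate 2 the higher genes numbered 521 and the lower 651. With the replicate number as a block 3442 genes were called (1760 higher, 1682 lower), and these hold the 1462 in the same direction. Calls kept in all 4 fits that leave out a 24 h array numbered 495 (370 higher, 125 lower), and each gene named below as higher or lower at 24 h is one of them unless its sentence says otherwise.

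The earlier times had fewer called genes between the genotypes, namely 278 at 0 h (2.32%), 512 at 1 h (4.28%), 324 at 3 h (2.71%) and 303 at 6 h (2.53%), each from its own 4 arrays. A test of whether the genotype difference at 24 h differed from that in unstimulated cells called 1037 genes (8.66%), 553 with a more positive difference at 24 h (4.62%) and 484 with a more negative one (4.04%). The same test against 6 h called 463 genes (3.87%), 388 toward the TAK1-deleted cells (3.24%) and 75 away from them (0.627%). These tests are named below as the change from 0 h and the change from 6 h. Between 0 and 24 h 43.8% of genes were called in wild type (23.6% higher, 20.2% lower at 24 h) and 27.6% in TAK1-deleted cells (14.9% and 12.7%).

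The labelled cell type was borne out by its markers in both groups. Cd79a, a chain of the receptor complex and a defining B cell gene, read 12.96 and 12.90 in the wild type arrays and 12.79 and 12.76 in the TAK1-deleted ones, a difference of -0.15 without a call. Of 14 pan-B markers 3 were called higher (21.4%, against 7.04% of all genes) and 0 lower, with a median of 0.16. Cd79a was among the 4 with a negative difference, while 10 were positive. Of the called ones Fcrla read 11.89 and 11.90 against 12.57 and 12.49 (0.64 ± 0.11). The higher markers numbered 2 without wild type replicate 2, 1 without each of the other 24 h arrays and 5 with the replicate block. Markers of other cells were measured too. Summed on the linear scale, 23 monocyte or macrophage markers came to 9654 and 8815 in the wild type arrays at 24 h and to 29035 and 26551 in the TAK1-deleted arrays, against 41227 and 43584 and 41887 and 39173 at 0 h. The sums of 18 neutrophil markers were 3024 and 3267 against 13212 and 12871 at 24 h, and 14 T cell markers summed to 4070 and 3997 against 5752 and 5855. RMA values have no true zero, so these sums do not show that a marker is present or absent, and the mean level of the neutrophil list in the wild type arrays at 24 h (7.11 and 7.25) lay below the median of all values, 7.45. The part of these cells in the gene groups described below was not tested, and in bulk RNA more cells of a type cannot be told apart from more RNA per cell.

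The called genes with the largest differences, 15 in each direction, were of different kinds. Among the rises 9 of 15 belong to the neutrophil or monocyte lists, and among the falls 3 of 15 belong to the G2/M list and 3 are Y-linked. The rises spanned 2.17 (Thbs1, thrombospondin) to 5.08 (Ctse, the aspartic protease cathepsin E), and the falls 1.26 (Ncapg2, a condensin subunit) to 4.07 (Eif2s3y). In every one of these genes both TAK1-deleted arrays lay on the same side of both wild type arrays, as the selection required.

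**Figure D1:**
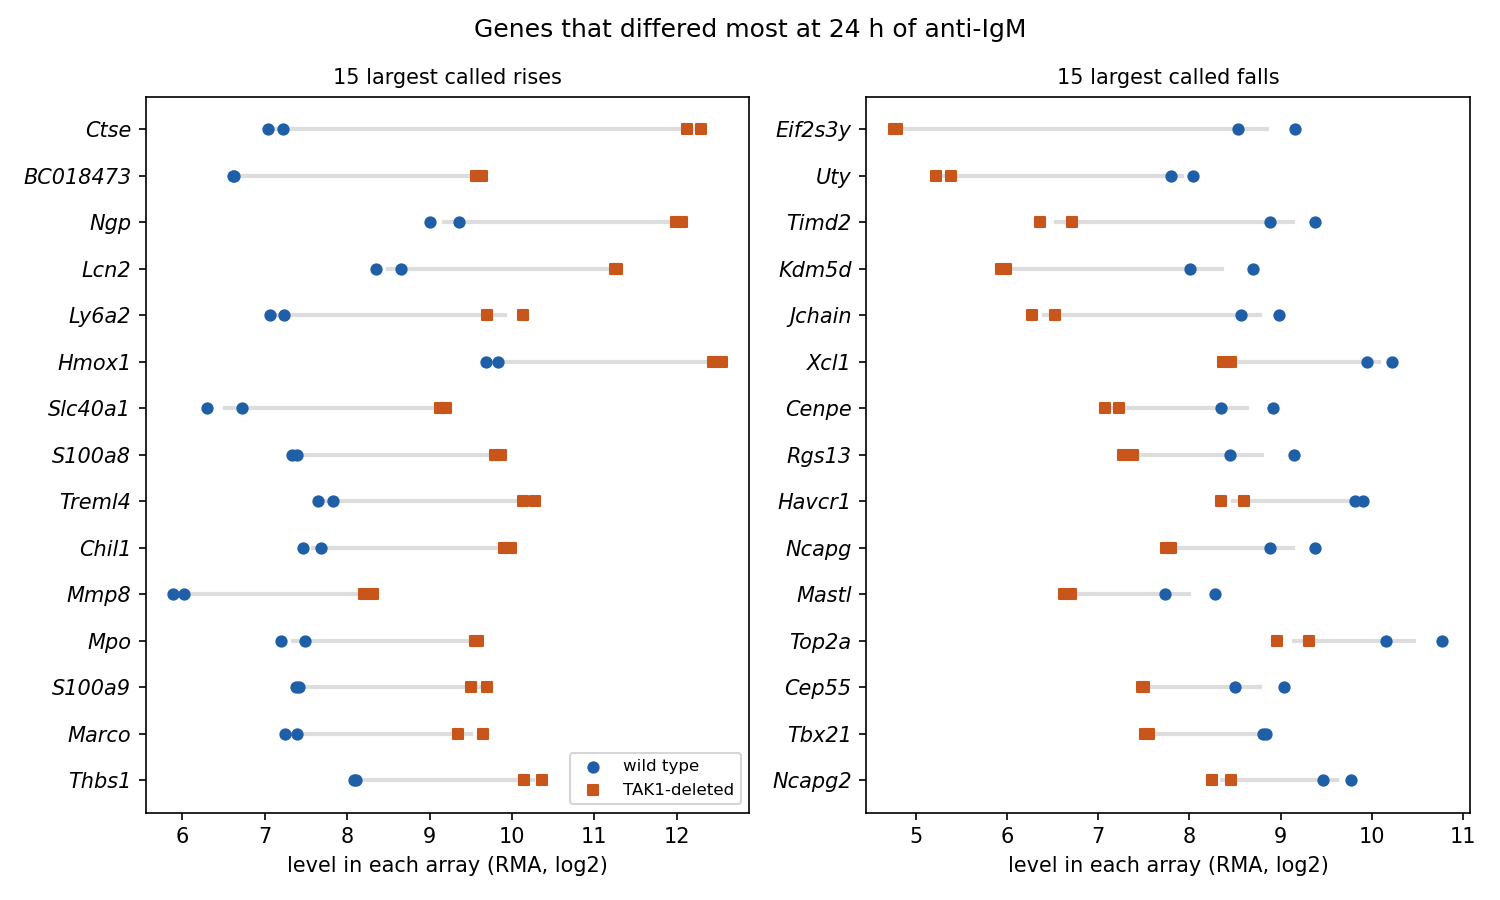
RMA log2 value of each 24 h array (x axis) for the 15 called rises and the 15 called falls of greatest size (y axis), with wild type arrays as blue circles, TAK1-deleted arrays as orange squares and a grey bar between the group means. Ctse, with the longest bar, lies at 7.04 and 7.22 in wild type and at 12.12 and 12.29 in TAK1-deleted cells, and the Y-linked gene Eif2s3y has the longest bar among the falls.

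Genes of mitosis were lower in the TAK1-deleted cells at 24 h. Of 38 measured G2/M genes 32 were called lower (84.2%, against 5.18% of all genes) and 0 higher, with a median of -0.94 and single genes from -1.47 to 0.14. Top2a, the topoisomerase that untangles sister chromatids, read 10.77 and 10.15 in wild type and 9.31 and 8.96 in TAK1-deleted cells, a fall of 1.32 ± 0.20 (2.5-fold, adjusted p = 0.000368). Both TAK1-deleted arrays lay below both wild type arrays by more than the wild type arrays lay apart. Cenpe, a kinetochore motor, read 8.91 and 8.35 against 7.08 and 7.23 and fell by 1.47 ± 0.22 (adjusted p = 0.000438). Ncapg, a condensin subunit, fell by 1.36 ± 0.25 (9.37 and 8.88 against 7.80 and 7.74), and Kif4, a chromokinesin, by 1.23 ± 0.21 (8.25 and 7.79 against 6.85 and 6.73). Mki67, which encodes the proliferation antigen Ki-67, read 11.13 and 10.85 in wild type and 9.96 and 9.82 in TAK1-deleted cells, a fall of 1.10 ± 0.13 (2.14-fold, adjusted p = 3.93e-05). Birc5, which encodes the chromosomal passenger protein survivin, read 8.65 and 8.62 against 7.81 and 7.70. Cdk1, the mitotic kinase, fell by 0.98 ± 0.19 and lost its call without TAK1-deleted replicate 2.

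The wild type arrays differed between themselves, with replicate 1 above replicate 2 in Top2a, Cenpe, Ncapg, Kif4 and Mki67. The TAK1-deleted arrays had the same order in each of these genes but Cenpe, with smaller gaps. The list median was -1.02 between the arrays numbered 1 and -0.85 between those numbered 2. The count of lower G2/M genes was 18 without wild type replicate 1 and 21 without TAK1-deleted replicate 2, against 31 and 26 without the other 2 arrays.

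Before 24 h the mitotic list lay higher in the TAK1-deleted cells or near 0. The list median was 0.47 at 0 h, 0.57 at 1 h, 0.19 at 3 h and -0.13 at 6 h, and 9 of the 38 genes were called higher in the unstimulated TAK1-deleted cells (1.5% of all genes were). Mki67 read 9.95 and 10.01 in wild type and 10.78 and 10.61 in TAK1-deleted cells at 0 h, and 8.97 and 8.91 against 8.98 and 8.99 at 6 h. From 0 h to 24 h the list median moved by 1.1 in wild type and by -0.25 in TAK1-deleted cells. In the change from 0 h 34 of 38 members were called, all toward lower values in the TAK1-deleted cells, and in the change from 6 h 12 were. Erythroid markers, which belong to a cell that divides in the spleen, had a median genotype difference of 1.53 at 0 h and 0.16 at 24 h, and their part in the 0 h values was not tested.

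Genes of DNA replication were lower as well. Of 38 measured G1/S genes 25 were called lower (65.8%) and 0 higher, all 38 differences were negative, and the median was -0.63. Gins1, a subunit of the replicative helicase, read 9.41 and 9.07 in wild type and 8.34 and 8.34 in TAK1-deleted cells (-0.90 ± 0.19), and lost its call without wild type replicate 1. Rrm2, the small subunit of ribonucleotide reductase, read 11.40 and 11.01 against 10.46 and 10.19 (-0.88 ± 0.20), and lost its call without wild type replicate 1 and without TAK1-deleted replicate 2. Exo1, an exonuclease of replication and mismatch repair, read 9.89 and 9.72 against 8.92 and 8.61, a fall of 1.04 ± 0.17 (adjusted p = 0.000742). The count of lower G1/S genes was 6 without wild type replicate 1 and 7 without TAK1-deleted replicate 2, against 24 and 18 without the other 2 arrays. In the change from 0 h 28 of the 38 members were called toward lower values, and the list median from 0 h to 24 h was 1.7 in wild type and 0.64 in TAK1-deleted cells.

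Among 24 G1 cyclins and CDK regulators 7 were called lower (29.2%, against 5.18% of all genes) and 1 higher (4.17%, against 7.04%), with a median of -0.28. Ccne2, a cyclin that starts S phase with CDK2, read 9.37 and 8.96 in wild type and 8.18 and 8.20 in TAK1-deleted cells, a fall of 0.97 ± 0.16 (adjusted p = 0.000881). Ccne1, which encodes the related cyclin E1, read 10.84 and 10.79 against 10.05 and 9.96 (-0.81 ± 0.15, adjusted p = 0.0019). Cdkn2b, an inhibitor of CDK4 and CDK6, was the member that went the other way, at 7.19 and 7.25 against 8.24 and 8.08, a rise of 0.94 ± 0.15 (adjusted p = 0.000511). Ccnd2, the D cyclin induced through the B cell receptor, read 13.00 and 12.93 against 12.44 and 12.35 (-0.56 ± 0.17), and its call was lost whichever 24 h array was left out. Ccnd3 read 10.22 and 10.14 against 10.07 and 9.85 without a call, and Ccnd1 8.07 and 8.01 against 8.35 and 8.54 without a call (adjusted p = 0.114, and 0.0271 with the replicate block). The count of lower members was 4 without wild type replicate 1 and 4 without TAK1-deleted replicate 2, and with the replicate block it was 13, with 5 higher.

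The proximal promoters of the mitotic genes carried the paired elements known from late cell cycle genes, the CCAAT box bound by NF-Y and the TTTGAA element (the cell cycle homology region) bound by complexes of the DREAM family. Promoters were taken from the RefSeq table for GRCm38.p6, as 300 bases of which 250 lie before the start, and both strands were searched. Both words occurred in 22 of 32 G2/M promoters (68.8%), against 468 of 9586 promoters of all tested genes (4.88%). TTTGAA, with or without CCAAT, occurred in 21.8% of promoters of genes called lower, in 10.1% of those called higher and in 11.8% of all. An E2F motif, searched as TTTCCCGC, TTTCGCGC, TTTGCCGC and TTTGGCGC, occurred in 11 of 34 G1/S promoters (32.4%), in 10.2% of promoters of genes called lower, in 1.19% of those called higher and in 4.11% of all. CCAAT and TTTGAA do not overlap as words, and a match describes the letters and not a bound site. Of the G2/M promoters with both words, those of the 3 genes that fell most are shown, with the matches on either strand in capitals. They hold these elements in different arrangements. The window of Ncapg is chr5:45669675-45669974 on the plus strand, that of Top2a chr11:99024140-99024439 on the minus strand and that of Kif4 chrX:100625815-100626114 on the plus strand.
Ncapg: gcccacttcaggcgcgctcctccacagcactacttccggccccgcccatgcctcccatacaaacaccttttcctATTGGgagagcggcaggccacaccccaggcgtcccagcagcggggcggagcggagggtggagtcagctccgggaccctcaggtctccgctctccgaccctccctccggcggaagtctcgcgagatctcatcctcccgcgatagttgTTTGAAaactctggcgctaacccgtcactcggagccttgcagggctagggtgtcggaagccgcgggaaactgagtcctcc
Top2a: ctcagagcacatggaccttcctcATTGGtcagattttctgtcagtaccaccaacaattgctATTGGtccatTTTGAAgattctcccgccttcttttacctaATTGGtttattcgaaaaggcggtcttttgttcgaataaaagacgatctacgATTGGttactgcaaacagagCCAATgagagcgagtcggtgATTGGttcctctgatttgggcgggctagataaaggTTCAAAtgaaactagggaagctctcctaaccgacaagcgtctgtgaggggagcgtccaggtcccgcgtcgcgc
Kif4: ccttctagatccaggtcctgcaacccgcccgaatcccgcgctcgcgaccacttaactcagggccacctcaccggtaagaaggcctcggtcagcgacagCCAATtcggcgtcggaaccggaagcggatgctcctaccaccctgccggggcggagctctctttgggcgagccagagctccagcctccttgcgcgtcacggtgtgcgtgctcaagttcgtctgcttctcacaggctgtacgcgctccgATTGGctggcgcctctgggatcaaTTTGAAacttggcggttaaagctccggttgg

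The Top2a window held 8 matches, 6 of them to CCAAT, while that of Ncapg held 1 of each word (2 matches) and that of Kif4 held 3 matches, with TTTGAA after the start.

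Many growth genes that act before division were lower too. Of 34 ribosome biogenesis genes 19 were called lower (55.9%) and 0 higher, with a median of -0.57. Rrp1b, a nucleolar protein of rRNA processing, read 10.70 and 10.44 in wild type and 9.81 and 9.55 in TAK1-deleted cells, a fall of 0.89 ± 0.15 (adjusted p = 0.000906). Rrs1, a ribosome assembly factor, fell by 1.20 ± 0.23 (9.60 and 8.93 against 8.24 and 7.90) and lost its call without wild type replicate 1. The list already had a median of -0.29 at 6 h, with 1 member called there (1.6% of all genes were called lower at 6 h), and in the change from 6 h 0 of its members were called. The list medians for 24 h against 0 h were 1.23 in wild type and 0.59 in TAK1-deleted cells. The count of lower members was 3 without wild type replicate 1, 6 without TAK1-deleted replicate 2 and 32 with the replicate block.

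Myc, the transcription factor that drives ribosome biogenesis, read 12.61 and 12.55 in wild type and 11.88 and 11.77 in TAK1-deleted cells at 24 h, a fall of 0.75 ± 0.15 (1.68-fold, adjusted p = 0.00412). At 1 h it stood at 13.99 and 13.73 in wild type and at 13.83 and 13.61 in TAK1-deleted cells, without a call between them. The 24 h difference of Myc differed from that at 0 h (-0.99 ± 0.22, adjusted p = 0.00858). Mxd4 and Mxd1, antagonists that compete with Myc for its partner Max, rose by 1.05 ± 0.14 (10.07 and 9.91 against 11.16 and 10.91) and 0.88 ± 0.15 (9.18 and 9.30 against 10.15 and 10.10). Of the 13 genes of the Myc network 3 were called higher (23.1%, against 7.04% of all genes). The 1 called lower (7.69%, against 5.18%) was Myc itself, and 2 were lower without wild type replicate 2.

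Some genes of nucleotide and amino acid supply were lower. Of 20 nucleotide synthesis genes 11 were called lower and 0 higher, and all 20 differences were negative with a median of -0.57. Of 22 genes of amino acid transport and one-carbon metabolism 7 were called lower and 1 higher. Shmt1, which makes one-carbon units from serine, read 10.24 and 9.85 against 9.12 and 8.84 (-1.07 ± 0.15, adjusted p = 0.000181), and Slc7a5, the large neutral amino acid transporter, 12.41 and 12.33 against 11.72 and 11.76 (-0.63 ± 0.10). The member that went the other way was Slc7a11, the cystine importer, at 8.87 and 8.33 in wild type and 10.29 and 10.12 in TAK1-deleted cells, a rise of 1.60 ± 0.19 (3.04-fold, adjusted p = 4.91e-05).

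Of 21 genes of glycolysis and glucose uptake 3 were called lower (14.3%, against 5.18% of all genes) and 2 higher (9.52%, against 7.04%). The list as a whole thus had no single direction (9 lower and 4 higher with the replicate block, and 1 higher without any 24 h array but wild type replicate 2). Pfkp, a phosphofructokinase, read 11.51 and 11.37 in wild type and 10.37 and 10.31 in TAK1-deleted cells (-1.10 ± 0.18), and Hk2, a hexokinase, 9.70 and 9.34 against 8.63 and 8.64 (-0.89 ± 0.12). Of 20 cholesterol biosynthesis genes 7 were called lower and 0 higher, and of 12 fatty acid synthesis genes 3 lower and 0 higher (5 lower with the replicate block). Fasn, the fatty acid synthase, read 11.92 and 11.79 against 11.15 and 11.03 (-0.76 ± 0.11, adjusted p = 0.000216). All 31 proteasome genes had negative differences, with a median of -0.31. Of these 2 were called (6.45%, against 5.18% of all genes), 1 without wild type replicate 2 and 0 without each of the other 24 h arrays. Without wild type replicate 1 the lower counts were 2 for nucleotide synthesis, 2 for amino acid transport and 0 for cholesterol biosynthesis. Without TAK1-deleted replicate 2 they were 2, 2 and 0, and with the replicate block they were 15, 13 and 11 for these lists and 14 for the proteasome. Without TAK1-deleted replicate 1 the counts were 7, 5 and 3.

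**Figure D2:**
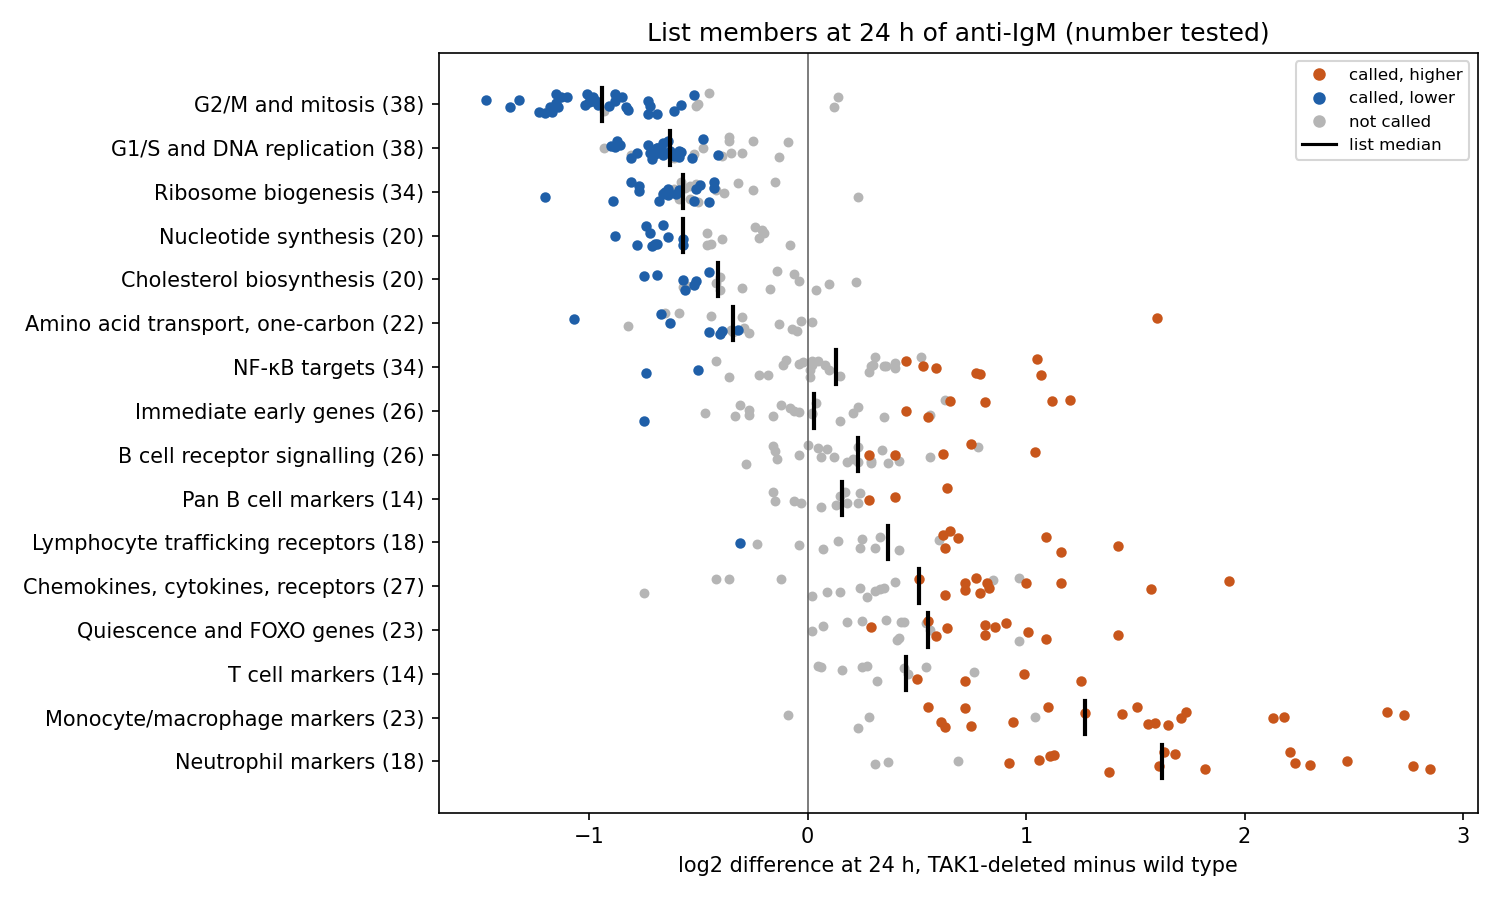
Log2 difference at 24 h, TAK1-deleted minus wild type (x axis), of each measured member of 16 gene lists (y axis, with the number of members tested), with orange points for members called higher, blue for called lower, grey for not called and a black tick at the list median. The mitotic and replication lists lie to the left of 0 and the neutrophil and monocyte lists to the right, with medians of -0.94, -0.63, 1.62 and 1.27.

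Many genes of the resting lymphocyte were higher in the TAK1-deleted cells. Of 23 quiescence and FOXO genes 11 were called higher (47.8%, against 7.04% of all genes) and 0 lower, all 23 differences were positive, and the median was 0.55. S1pr1, the sphingosine phosphate receptor that lets lymphocytes leave lymphoid organs, read 9.19 and 9.10 in wild type and 10.57 and 10.58 in TAK1-deleted cells, a rise of 1.42 ± 0.16 (2.68-fold, adjusted p = 3.42e-05). Its regulator Klf2 read 8.91 and 8.73 against 10.00 and 9.83 (1.09 ± 0.17, adjusted p = 0.00059). Bcl6, a repressor that FOXO factors induce, read 8.12 and 7.93 against 9.13 and 8.94 (1.01 ± 0.19). Txnip, an inhibitor of glucose uptake, rose by 0.91 ± 0.14 (10.19 and 9.75 against 11.03 and 10.74), and Btg2, an antiproliferative gene, by 0.81 ± 0.08 (11.54 and 11.54 against 12.37 and 12.33). The arrays of the groups were apart in these genes, as in all 1462 called genes and in 51% of all genes. Btg2 was the tightest within groups.

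Over the 24 h S1pr1, Klf2, Bcl6 and Txnip fell in both genotypes, and less in the TAK1-deleted cells. S1pr1 read 12.19 and 12.07 in wild type and 12.24 and 12.07 in TAK1-deleted cells at 0 h, without a call between them. By 24 h it had fallen by 2.98 ± 0.16 in wild type and by 1.58 ± 0.16 in TAK1-deleted cells. The list medians for 24 h against 0 h were -1.06 and -0.28, and 11 of the 23 members were called in the change from 0 h, all toward higher values in the TAK1-deleted cells. With the replicate block 19 of the 23 were called higher at 24 h.

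Many homing receptors and chemokine genes were higher at 24 h as well. The trafficking list medians for 24 h against 0 h were -1.24 in wild type and -0.41 in TAK1-deleted cells. Those of the chemokine list were -0.68 and 0.26, so that list did not fall in both genotypes. Of 18 lymphocyte trafficking genes 7 were called higher (38.9%) and 1 lower (5.56%, against 5.18% of all genes), with a median of 0.37. Cxcr4, the receptor for the retention chemokine CXCL12, read 9.80 and 9.50 against 10.75 and 10.87 (1.16 ± 0.19, adjusted p = 0.000742), and Itga4, the α4 integrin chain, 11.29 and 10.97 against 11.84 and 11.80 (0.69 ± 0.11). The lower gene was Gpr183, the oxysterol receptor, whose call (-0.31) was lost whichever 24 h array was left out. Of 27 chemokine, cytokine and receptor genes 12 were called higher and 0 lower, with a median of 0.51. The largest rises there were those of Ccr9, which is also a plasmacytoid dendritic cell gene, at 7.60 and 7.54 against 9.67 and 9.34 (1.93 ± 0.24), and of Il1b, which monocytes and neutrophils make, at 7.94 and 7.84 against 9.46 and 9.46 (1.57 ± 0.15). Without TAK1-deleted replicate 1 the higher genes numbered 4 in the trafficking list and 7 in the chemokine list, and with the replicate block 12 and 18, with 2 chemokine list genes lower. The markers of these other cells are described further down, and their part in these counts was not tested.

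Most NF-κB target genes had no call at 24 h, but the share called higher was above that of all genes. Of 34 measured targets 7 were called higher (20.6%, against 7.04% of all genes). Another 2 were called lower (5.88%, against 5.18%), 25 had no call, and the median was 0.13. The 2 lower genes were Bcl2l1 and Tnfaip3. Bcl2l1, the gene of the survival protein Bcl-xL, read 9.73 and 9.68 in wild type and 8.89 and 9.05 in TAK1-deleted cells, a fall of 0.74 ± 0.13 (1.67-fold, adjusted p = 0.00139). Tnfaip3, which encodes the feedback inhibitor A20, read 10.41 and 10.10 against 9.88 and 9.63 (-0.50 ± 0.16, adjusted p = 0.0462), and kept its call in 1 of the 4 fits that leave out a 24 h array, the one without wild type replicate 2. Ltb, which encodes lymphotoxin β, was higher at 8.48 and 8.46 against 9.27 and 9.25 (0.79 ± 0.12, adjusted p = 0.000483). Bcl3, an atypical IκB protein, read 10.14 and 9.99 against 11.21 and 11.06 (1.07 ± 0.26), and Cd80, a costimulatory ligand, 9.37 and 9.10 against 10.36 and 10.22 (1.05 ± 0.29). The calls of Bcl3 and Cd80 were lost whichever 24 h array was left out. The targets called higher numbered 3 without wild type replicate 1, 3 without wild type replicate 2, 2 without TAK1-deleted replicate 1 and 2 without TAK1-deleted replicate 2, and 15 with the replicate block.

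The same list had lain lower at the earlier times. Its median was -0.12 at 0 h, -0.27 at 1 h, -0.33 at 3 h and -0.29 at 6 h, and 9 members at 1 h, 11 at 3 h and 6 at 6 h were called lower, against 2.21%, 1.7% and 1.6% of all genes. Bcl2l1 at 3 h read 9.88 and 9.83 in wild type and 8.08 and 8.36 in TAK1-deleted cells, a difference of -1.63 ± 0.13 (adjusted p = 2.94e-06). Over the TAK1-deleted arrays Bcl2l1 went from 7.41 and 7.56 at 0 h to 8.89 and 9.05 at 24 h, a rise of 1.48 ± 0.13, against 2.30 ± 0.13 in wild type. Tnfaip3 stood at 12.36 and 12.05 against 10.99 and 10.97 at 1 h, and at 11.10 and 11.01 against 9.91 and 9.78 at 6 h. Nfkbia, which encodes IκBα, was lower by 0.60 ± 0.09 at 1 h (adjusted p = 0.00115), and at 24 h it read 11.67 and 11.69 against 11.64 and 11.51 without a call. In the change from 6 h 7 targets were called, all toward higher values in the TAK1-deleted cells at 24 h (3.24% of all genes were).

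Of the NF-κB subunit genes Rel, Nfkb2, Rela and Relb had no call at 24 h. Rel read 13.38 and 13.21 in wild type and 13.35 and 13.25 in TAK1-deleted cells, and Nfkb2 11.21 and 11.32 against 11.27 and 11.30, so that the groups overlapped. Rela read 11.10 and 11.05 against 11.31 and 11.16 (0.16 ± 0.21). Relb read 9.67 and 9.37 against 9.98 and 9.85 (0.40 ± 0.16, adjusted p = 0.119, and 0.00183 with the replicate block). Of 22 components of the TAK1, IκB kinase and TRAF pathway 2 were called higher (9.09%, against 7.04% of all genes) and 1 lower (4.55%, against 5.18%). With the replicate block 5 were higher, and with any single 24 h array left out 1 was. Map3k14, which encodes the kinase NIK of the noncanonical NF-κB pathway, read 8.72 and 8.79 against 9.63 and 9.53, a rise of 0.82 ± 0.15 (1.77-fold, adjusted p = 0.0021). Map3k7 itself read 10.64 and 10.35 against 10.66 and 10.55 (0.11 ± 0.14, adjusted p = 0.754). Where its probes lie relative to the deleted part of the gene is not given in the sources used here, so its value is no check of the genotype.

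The κB consensus was searched in the same promoter windows. It occurred in 11 of 28 promoters of the NF-κB target list (39.3%), in 5.1% of all promoters, in 4.44% of those of genes called lower and in 7.45% of those called higher. The promoters of Tnfaip3 and Ltb are shown since these targets moved in opposite directions at 24 h, with κB matches on either strand in capitals. The window of Tnfaip3 is chr10:19015361-19015660 on the minus strand and that of Ltb chr17:35194257-35194556 on the plus strand, and they held 2 matches and 1 match.
Tnfaip3: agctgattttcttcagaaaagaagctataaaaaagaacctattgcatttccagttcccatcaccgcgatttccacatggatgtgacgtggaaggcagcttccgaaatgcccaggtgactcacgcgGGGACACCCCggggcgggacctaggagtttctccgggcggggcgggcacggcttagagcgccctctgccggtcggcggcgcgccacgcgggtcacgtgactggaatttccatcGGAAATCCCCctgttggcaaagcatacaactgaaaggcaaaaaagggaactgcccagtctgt
Ltb: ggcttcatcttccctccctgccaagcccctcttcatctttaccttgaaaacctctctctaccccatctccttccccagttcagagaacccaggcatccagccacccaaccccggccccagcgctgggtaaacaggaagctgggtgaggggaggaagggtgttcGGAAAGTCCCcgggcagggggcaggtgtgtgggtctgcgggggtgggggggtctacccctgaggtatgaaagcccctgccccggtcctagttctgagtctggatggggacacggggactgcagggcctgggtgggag

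MicroRNA loci that lymphocytes induce were among the called falls, and were picked out after their values were seen. Mir155, the locus of a microRNA of activated lymphocytes, read 10.28 and 10.34 in wild type and 9.13 and 9.49 in TAK1-deleted cells (a fall of 1.00 ± 0.28, adjusted p = 0.0277), and its call was lost whichever 24 h array was left out. Mir17hg, the host transcript of the miR-17 cluster and a target of Myc, read 8.11 and 7.96 against 7.07 and 7.29, a fall of 0.85 ± 0.17 (adjusted p = 0.00383), and lost its call without TAK1-deleted replicate 1. The probe set of Mir18, a member of that cluster, read 8.95 and 8.62 against 7.48 and 7.81 (-1.14 ± 0.35, adjusted p = 0.0467), with the call lost whichever 24 h array was left out. These probe sets read RNA of the loci and not the mature microRNAs. Mir17 and Mir19a, of the same cluster, were also picked out, and their values are not given here. The mature 5p forms in RefSeq are printed with the seed (bases 2 to 8) in capitals, and the seeds differ from each other.
miR-155-5p: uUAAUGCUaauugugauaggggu
miR-18a-5p: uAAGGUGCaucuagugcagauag

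Survival and death genes were measured as well. Of 13 anti-apoptotic genes 1 was called higher (7.69%, against 7.04% of all genes) and 2 lower (15.4%, against 5.18%). The higher one was Pim2, whose call was lost without TAK1-deleted replicate 1. The lower ones were Bcl2l1 and Birc5, which is also a mitotic gene. With the replicate block 2 were higher and 3 lower. Bcl2 read 11.39 and 11.37 in wild type and 11.45 and 11.41 in TAK1-deleted cells, and Mcl1 11.57 and 11.27 against 11.62 and 11.46, both without a call. Bcl2l11, which encodes the BH3-only protein Bim, differed by 0.13 ± 0.17 without a call. Of 18 pro-apoptotic genes 1 was called higher (5.56%, and 2 genes with the replicate block) and 0 lower. It was Bmf, a BH3-only gene, at 9.57 and 9.47 against 10.49 and 10.42 (0.93 ± 0.11, adjusted p = 3.96e-05). Fas, the death receptor, had no call at 24 h (0.36, adjusted p = 0.273), and had been lower by 2.04 ± 0.19 at 1 h and by 0.82 ± 0.19 at 0 h. Fas was called in the change from 0 h, at 1.17 (adjusted p = 0.0104).

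Most genes of B cell activation had no call. Of 26 genes of the receptor and its proximal signalling 5 were called higher (19.2%, against 7.04% of all genes) and 0 lower. The median was 0.23, and 21 of the 26 differences were positive. The higher genes numbered 2 without wild type replicate 1, TAK1-deleted replicate 1 or TAK1-deleted replicate 2, and 11 with the replicate block, which also called 1 lower. Lair1, an inhibitory receptor that myeloid cells express as well, read 6.89 and 7.06 in wild type and 7.96 and 8.08 in TAK1-deleted cells (1.04 ± 0.15), and Pecam1, also an endothelial and platelet gene, rose by 0.75 ± 0.14. Of 18 activation surface markers 3 were called higher (16.7%) and 1 lower (5.56%, against 5.18% of all genes). With the replicate block these counts were 5 and 4. The early marker Cd69 read 10.18 and 9.80 against 10.27 and 10.02 without a call, after a fall of 0.94 ± 0.15 at 6 h. Cd86 (10.49 and 10.24 against 10.70 and 10.49) and Cd83 (12.77 and 12.69 against 12.72 and 12.70) had no call. Irf4, a transcription factor of activated B cells, had none either (0.28 ± 0.14, adjusted p = 0.241, and 0.00577 with the replicate block). Pdcd1, which encodes PD-1, differed by -0.28 ± 0.13, Ighm by -0.16 ± 0.18, Prdm1 by -0.12 ± 0.28 and the phosphatase gene Dusp4 by 0.07 ± 0.19, all without a call. Tnfrsf4, which encodes OX40, was lower at 8.54 and 8.69 against 9.24 and 9.17 in wild type (-0.59 ± 0.11). The calls of the 3 higher markers, Cd80, Tnfrsf9 and Sdc4, were lost whichever 24 h array was left out.

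Timd2 and Havcr1, genes of the TIM family of surface receptors, were among the 15 largest falls. They were grouped after their values were seen, and Havcr2, another member, had no call (0.41, adjusted p = 0.448). Timd2, a receptor for ferritin heavy chain, read 9.38 and 8.88 in wild type and 6.36 and 6.71 in TAK1-deleted cells, a fall of 2.60 ± 0.18 (6.05-fold, adjusted p = 2.41e-07). At 0 h it had read 5.77 and 5.81 against 5.55 and 5.83, so that it was induced mainly in the wild type cells, by 3.34 ± 0.18 against 0.85 ± 0.18. Havcr1, which encodes TIM-1, a receptor of regulatory B cells, read 9.90 and 9.81 against 8.60 and 8.35 (-1.38 ± 0.16, adjusted p = 4.23e-05), and had been lower by 1.30 ± 0.16 at 6 h. Il10, a cytokine of such cells, had no call at 24 h (-0.12, adjusted p = 0.855) after falls of 2.57 at 1 h, 2.14 at 3 h and 2.34 at 6 h, each ± 0.24.

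Of 19 class switch and germinal centre genes 5 were called lower (26.3%, against 5.18% of all genes) and 2 higher (10.5%, against 7.04%). Batf, an AP-1 partner needed for switching, read 9.51 and 9.35 in wild type and 8.49 and 8.62 in TAK1-deleted cells (-0.88 ± 0.16, adjusted p = 0.00151), and Rgs13, a brake on chemokine receptor signalling in germinal centre cells, 9.15 and 8.44 against 7.38 and 7.27 (-1.46 ± 0.26). The 2 higher genes were Bcl6 and Basp1, and 4 were higher with the replicate block. Without wild type replicate 1 the lower genes numbered 3, without TAK1-deleted replicate 2 they numbered 3, and without wild type replicate 2 they numbered 7. Of 26 anergy and inhibitory receptor genes 5 were called higher (19.2%) and 3 lower (11.5%), and 3 were higher without wild type replicate 1, wild type replicate 2 or TAK1-deleted replicate 2. Rnf128, the ubiquitin ligase GRAIL, rose by 1.62 ± 0.15 (6.95 and 6.80 against 8.57 and 8.43, adjusted p = 4.27e-06), and Lag3, an inhibitory receptor, by 0.84 ± 0.15 (8.32 and 7.98 against 8.99 and 8.99).

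Feedback genes of MAP kinase and cytokine signalling included clear single rises. Socs2, an inhibitor of cytokine receptors, read 9.44 and 9.27 in wild type and 10.70 and 10.57 in TAK1-deleted cells (1.29 ± 0.17, adjusted p = 0.000108), and Dusp5, a phosphatase of ERK, 9.41 and 9.35 against 10.47 and 10.48 (1.09 ± 0.20). Of the 24 genes of that list 4 were called higher (16.7%, against 7.04% of all genes) and 2 lower (8.33%, against 5.18%). With the replicate block 7 were higher. The lower ones numbered 0 without wild type replicate 1 or TAK1-deleted replicate 2 and 1 without each of the other 24 h arrays. Of 26 immediate early genes 6 were called higher (23.1%) and 1 lower (3.85%), Myc, with 4 lower under the replicate block. The higher ones numbered 3 without wild type replicate 1 or wild type replicate 2 and 1 without TAK1-deleted replicate 1. Egr1 read 10.73 and 10.65 against 10.61 and 10.54 without a call. Of 26 interferon response genes 3 were called higher (11.5%, against 7.04% of all genes) and 1 lower (3.85%, against 5.18%). The lower one was Ifih1, the RNA sensor MDA5, at 9.79 and 9.43 against 8.49 and 8.32 (-1.20 ± 0.18). The interferon list had a median of 0.21 at 24 h and of -0.63 at 6 h, where 12 of its members were called lower, and in the change from 6 h 9 were called upward. The 3 higher interferon genes lost their calls whichever 24 h array was left out, and 9 were higher with the replicate block.

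**Figure D3:**
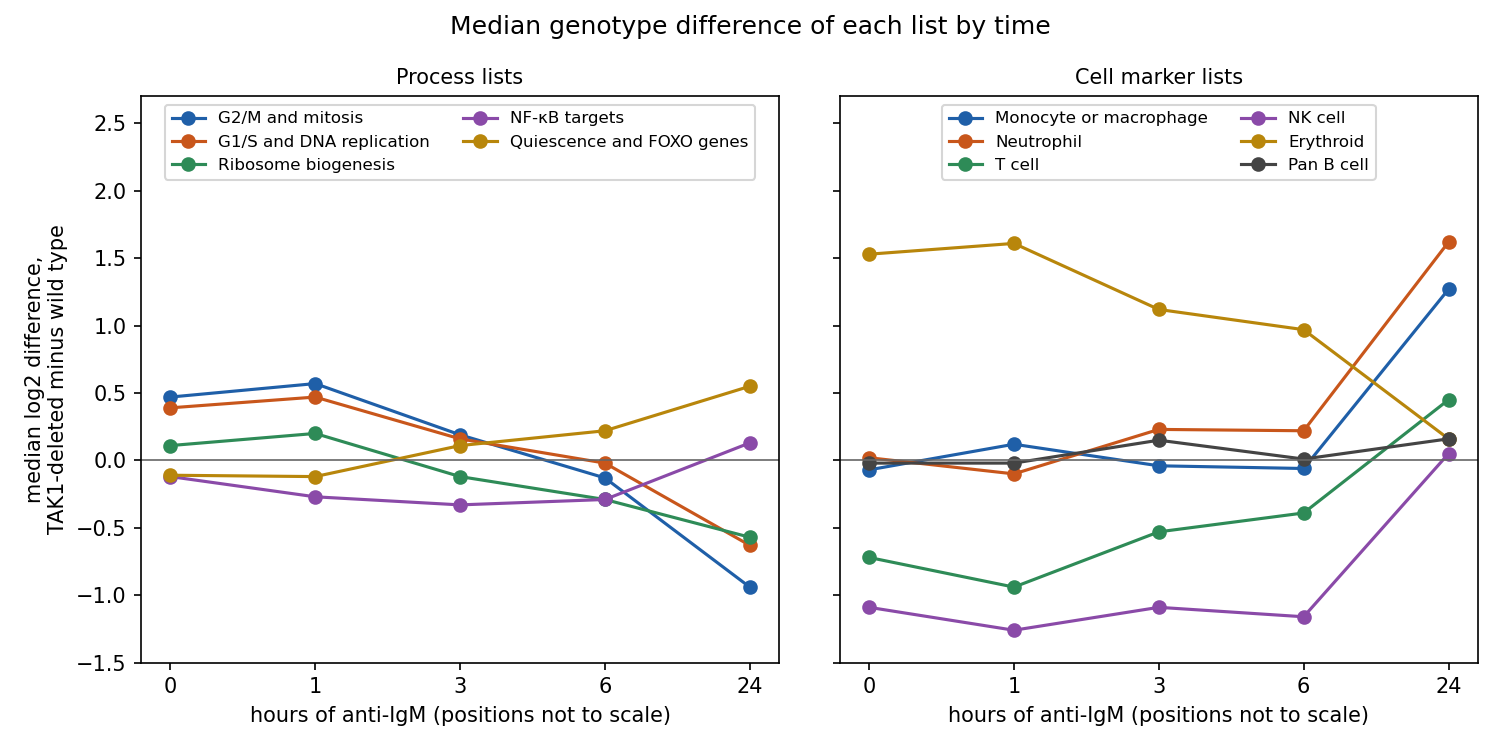
Median log2 difference of the members of 11 gene lists, TAK1-deleted minus wild type (y axis), at 0, 1, 3, 6 and 24 h of anti-IgM (x axis, positions not to scale), for process lists on the left and cell marker lists on the right. The neutrophil and monocyte medians stay between -0.1 and 0.23 up to 6 h and reach 1.62 and 1.27 at 24 h, while the G2/M median goes from 0.47 to -0.94.

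Neutrophil and monocyte markers made up 9 of the 15 largest rises. Of 18 neutrophil markers 15 were called higher (83.3%) and 0 lower, all 18 differences were positive, and the median was 1.62. S100a8, a calprotectin subunit, read 7.33 and 7.39 in wild type and 9.80 and 9.87 in TAK1-deleted cells, a rise of 2.47 ± 0.23 (5.56-fold, adjusted p = 4.84e-06). Ngp, a granule protein, had group means of 9.18 and 12.03 (2.85 ± 0.20), and Lcn2, which encodes the siderophore-binding lipocalin, 8.35 and 8.65 against 11.25 and 11.28 (2.77 ± 0.40). In S100a8 the arrays of a group differed far less from each other than the groups did.

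Of 23 monocyte or macrophage markers 19 were called higher (82.6%) and 0 lower, with a median of 1.27. Hmox1, the heme oxygenase of red pulp macrophages, read 9.83 and 9.69 against 12.55 and 12.44 (2.73 ± 0.18, 6.64-fold, adjusted p = 1.89e-07). Slc40a1, the iron exporter ferroportin, read 6.73 and 6.30 against 9.20 and 9.13 (2.65 ± 0.15), and Marco, a scavenger receptor, 7.25 and 7.39 against 9.35 and 9.65 (2.18 ± 0.15). Gpnmb, a lysosomal glycoprotein of macrophages, read 9.09 and 8.85 against 10.10 and 10.50 (1.33 ± 0.16). The counts of higher monocyte and neutrophil markers were 16 to 17 and 14 to 15 with a 24 h array left out.

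Before 24 h fewer myeloid markers were called. The 18 neutrophil markers held 3 higher and 1 lower at 0 h and 4 higher and 3 lower at 1 h. Later 3 of them were higher at 3 h, 2 were higher at 6 h, and 0 were lower at these times. Of the 23 monocyte markers 1 was higher at 1 h and 1 lower at each of 0, 3 and 6 h. At 0 h S100a8 read 9.83 and 10.25 in wild type and 9.36 and 9.70 in TAK1-deleted cells, and Hmox1 11.56 and 11.48 against 11.76 and 11.57, both without a call. In the wild type cells S100a8 was lower by 2.69 ± 0.23 at 24 h than at 0 h (adjusted p = 1.7e-07), whereas in the TAK1-deleted cells it read 9.80 and 9.87, a difference of 0.30 ± 0.23 without a call. The list medians for 24 h against 0 h were -2.02 in wild type and -0.11 in TAK1-deleted cells for neutrophil markers, and -1.72 and -0.40 for monocyte markers. Slc40a1 followed another course, falling between 0 and 24 h by 4.60 ± 0.15 in wild type and by 1.88 ± 0.15 in TAK1-deleted cells. In the change from 0 h 12 neutrophil and 18 monocyte markers were called, all toward higher values in TAK1-deleted cells, and in the change from 6 h 12 and 16.

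Rarer myeloid types went the same way. Of 13 dendritic cell markers 6 were called higher and 0 lower, among them Siglech, a plasmacytoid dendritic cell receptor (7.00 and 7.34 against 9.23 and 9.26, 2.07 ± 0.19), which had also been higher at 0 h by 0.94 ± 0.19. Of 7 mast cell or basophil markers 3 were called higher, with Kit, the stem cell factor receptor, at 8.14 and 7.71 against 9.66 and 9.53 (1.67 ± 0.22). Of 9 platelet markers 4 were called higher, with Ppbp, a platelet chemokine, at 7.99 and 7.52 against 9.84 and 9.89 (2.11 ± 0.27). Without wild type replicate 1, TAK1-deleted replicate 1 or TAK1-deleted replicate 2 the higher platelet markers numbered 2. Of 30 lysosome genes 8 were called higher and 0 lower. They include Ctse and the cathepsin Ctsl (7.79 and 7.76 against 9.33 and 9.40, 1.59 ± 0.12), which macrophages express as well. With the replicate block 16 lysosome genes were called higher and 1 lower.

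The median difference of T and NK cell markers lay below 0 up to 6 h and not at 24 h. Of 14 T cell markers 4 were called higher at 24 h and 0 lower, with a median of 0.45, after medians of -0.72, -0.94, -0.53 and -0.39 at 0, 1, 3 and 6 h. At 0 h 5 of them were called lower (0.819% of all genes were). Cd28, the T cell costimulatory receptor, read 7.42 and 6.96 in wild type and 8.46 and 8.42 in TAK1-deleted cells at 24 h (1.25 ± 0.23, adjusted p = 0.00204), and 10.50 and 10.10 against 9.44 and 8.93 at 1 h (-1.12 ± 0.23). Cd3g, a chain of the T cell receptor complex, read 8.42 and 8.36 against 8.82 and 8.97 at 24 h, where its call was lost whichever 24 h array was left out, and 10.54 and 10.52 against 9.43 and 9.35 at 0 h. Klrd1, the NK receptor chain CD94, read 6.30 and 6.13 against 7.35 and 7.25 at 24 h (1.09 ± 0.20), and 9.65 and 9.56 against 8.70 and 8.26 at 0 h. Both genotypes had lower levels of these genes at 24 h than at 0 h except Cd28 in TAK1-deleted cells, with the larger falls in wild type.

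As to the change from 0 h, 9 of 14 T cell and 7 of 13 NK cell markers were called, all toward higher values in TAK1-deleted cells. The T cell markers called higher at 24 h numbered 2 without wild type replicate 1 and 1 without each of the other 24 h arrays, and 8 with the replicate block. The NK list had a median of 0.05 at 24 h with 1 call, Klrd1 (7.69%, against 7.04% of all genes called higher). With the replicate block 2 were higher and 1 lower. The NK medians had been -1.09 at 0 h and -1.16 at 6 h, with 8 members called lower at each. Ccl5, a chemokine of T and NK cells, read 11.51 and 11.41 in wild type and 12.43 and 12.49 in TAK1-deleted cells at 24 h (1.00 ± 0.12, adjusted p = 3.93e-05), and 12.12 and 11.98 against 11.11 and 11.09 at 0 h (-0.95 ± 0.12).

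Erythroid markers took the opposite course. All 12 were called higher in the TAK1-deleted cells at 0 h, with a median of 1.53, and 8 still were at 6 h, where 0.927% of all genes were. At 24 h 1 was called (8.33%, against 7.04% of all genes called higher). It was Alas2, the erythroid heme synthesis enzyme, at 6.75 and 7.22 in wild type and 7.65 and 7.41 in TAK1-deleted cells. Its call was lost without wild type replicate 1, without TAK1-deleted replicate 1 and without TAK1-deleted replicate 2, and with the replicate block 3 were higher and 1 lower. In the change from 0 h 9 of the 12 were called toward lower values in TAK1-deleted cells, and their medians for 24 h against 0 h were -0.28 in wild type and -2.13 in TAK1-deleted cells.

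A small set of genes differed at every time. Of the genes called at 24 h 35 were also called at 0, 1, 3 and 6 h, 26 of them in the same direction throughout (16 higher, 10 lower) and 9 lower at 0 to 6 h and higher at 24 h. The 9 include Cd3g, Klrd1 and Ccl5, and all 9 were called in the change from 0 h. Ctse had the largest rise at 24 h, at 7.22 and 7.04 in wild type and 12.29 and 12.12 in TAK1-deleted cells (5.08 ± 0.19, 33.7-fold, adjusted p = 2.13e-10), and 10.15 and 9.84 against 13.13 and 13.07 at 0 h. Its wild type level had fallen by 2.87 ± 0.19 over the 24 h and its TAK1-deleted level by 0.89 ± 0.19, and the change from 0 h was called (1.97 ± 0.26). BC018473 read 6.63 and 6.62 against 9.64 and 9.56 at 24 h (2.97 ± 0.17) and 6.36 and 6.79 against 11.41 and 11.40 at 0 h. Mpo, the myeloperoxidase of neutrophil precursors, read 7.20 and 7.49 against 9.55 and 9.59 (2.23 ± 0.15), after a rise of 1.81 ± 0.15 at 0 h.

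Of the genes lower at every time, Jchain, which joins polymeric IgM and marks plasma cells, read 8.98 and 8.56 in wild type and 6.53 and 6.28 in TAK1-deleted cells at 24 h (-2.36 ± 0.14, 5.15-fold, adjusted p = 6.17e-08). At 0 h it read 11.93 and 11.95 against 6.67 and 6.59, and the smaller difference at 24 h came with a fall of 3.17 ± 0.14 in the wild type cells. Of 10 plasma cell markers Jchain was the 1 called lower (10%, against 5.18% of all genes). Another 1 was called higher (10%, against 7.04%), Sdc1, which kept its call only without TAK1-deleted replicate 2. With the replicate block 3 were lower and 3 higher. Tbx21, the transcription factor T-bet, read 8.84 and 8.80 against 7.51 and 7.56 (-1.28 ± 0.12, adjusted p = 5.4e-06), and had been lower by 1.78 ± 0.12 at 3 h.

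Y-linked genes belong to the same set, so the sexes of the mice were not matched between the groups. Eif2s3y read 9.16 and 8.53 in wild type and 4.80 and 4.76 in TAK1-deleted cells at 24 h, Uty 8.04 and 7.80 against 5.22 and 5.39, and Kdm5d 8.70 and 8.01 against 5.94 and 5.99. The falls were 4.07 ± 0.31, 2.62 ± 0.23 and 2.39 ± 0.20, and they were of similar size at 0 h. Xist, expressed from the inactive X chromosome, read 12.26 and 12.14 against 12.71 and 12.51 (0.41 ± 0.13, adjusted p = 0.056, and 0.0122 with the replicate block). The part of sex in the other differences was not tested, and sex and genotype cannot be fully told apart in these arrays.

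**Figure D4:**
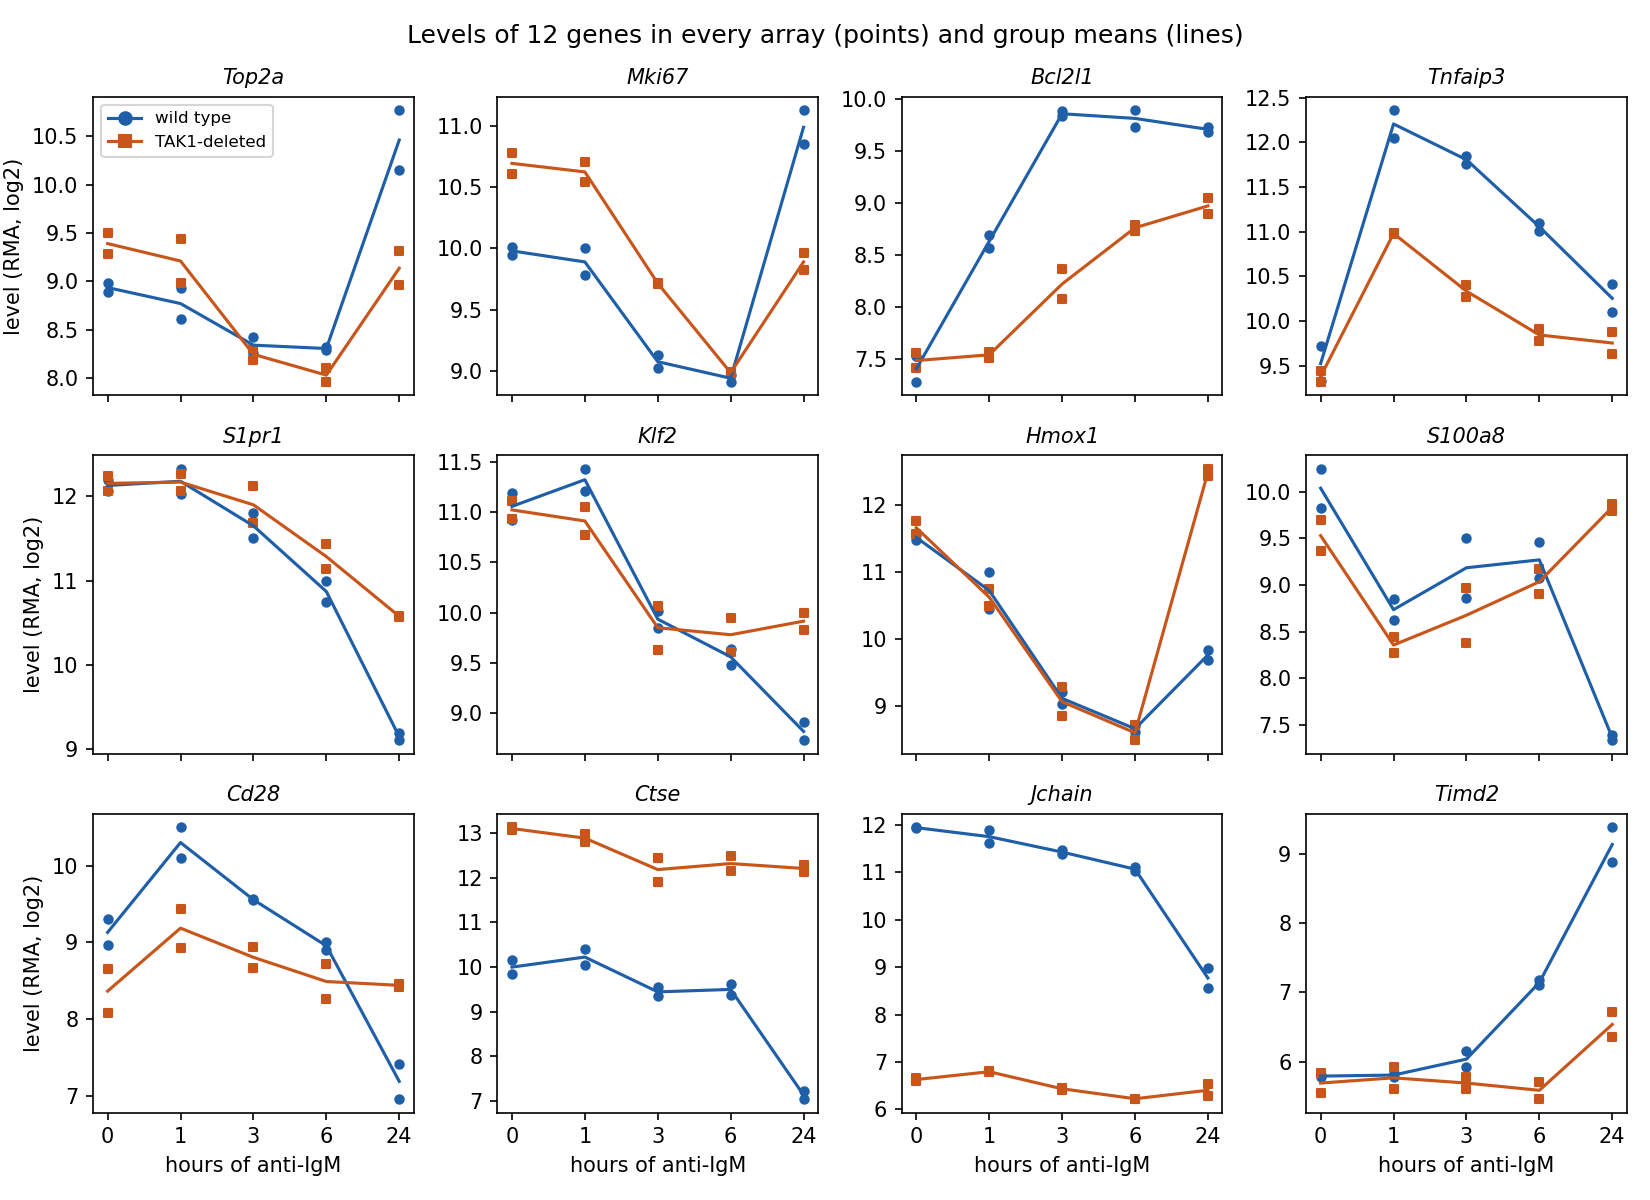
RMA log2 value of each array (y axis) against hours of anti-IgM (x axis, positions not to scale) for 12 genes, with wild type in blue and TAK1-deleted in orange and a line through the group means. At 24 h wild type lies above in Top2a and Mki67, while at 0, 1 and 3 h Mki67 lies higher in TAK1-deleted cells. S100a8 and Hmox1 part at 24 h with TAK1-deleted above, and Ctse and Jchain are apart at every time.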

How the data were processed

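Total RNA of splenic B cells was measured on 20 Affymetrix mouse gene arrays, in 10 groups of 2. The authors deposited RMA values on the log2 scale, which per the submitters' processing notes came from Affymetrix Expression Console 1.0. For the probe sets, the build and the annotation were not named in the sources used here. The values were used as deposited. Of 35556 probe sets 20326 were at or above 7.45, the overall median, in 2 or more arrays. Those with several symbols or none (7191) were left out, and the brightest probe set was taken for 678 genes with several, which left 11968 genes. RMA does not subtract background to 0, so folds of dim genes are understated. Precision is limited by how many arrays there are (median standard error 0.161).

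The fit covered all 20 arrays with 1 mean per group, using lmFit and eBayes (intensity trend on) from limma 3.58.1 under R 4.3.3 (10 residual degrees of freedom, prior 5.47), with Benjamini-Hochberg adjustment over all genes within a contrast, two-sided, and calls below 0.05. The step was checked on simulated data with noise drawn independently for each array. That check does not cover deviations shared by arrays of the same replicate number. The change from 6 h was added after values were seen. Across genes, the 2 arrays of a group had r of 0.979 to 0.994. The replicate numbers come from the labels' sample descriptions, and arrays of the same number deviated together in all 45 pairs of groups (r of 0.19 to 0.77, median 0.54), so they pair the arrays. The blocked value stands beside a result where it changes a call or moves a count by over 1.5 times.

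Named genes are the 15 largest called rises and falls with groups apart, up to 4 called members of each list by size, members that go against their list, and 31 genes given whatever their value. The 32 process lists, 15 marker lists, these genes and the comparison itself were chosen with earlier results of these data known. Of 953 listed symbols with a current gene 818 were tested. Promoters are the first listed for a gene in RefSeq, and 9586 tested genes had one. Alternatives were other filters, probe set rules, scalings, variance models, arrays in the fit and each array left out.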

Additional observations from a re-analysis of the deposited data

Results flagged for a closer look

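For 1037 genes the genotype difference at 24 h differed from that in unstimulated cells by a test of the change itself, and the genes among them that are described here follow, each as the 24 h difference minus the 0 h difference on the log2 scale. Among neutrophil genes the change was 2.19 for Ngp, 2.63 for Lcn2, 2.99 for S100a8, 2.78 for S100a9 and 2.96 for Mmp8. Among macrophage genes it was 2.59 for Hmox1, 2.72 for Slc40a1 and 1.60 for Marco. Other leading rises changed by 1.97 (Ctse), 2.25 (Ly6a2), 2.58 (Treml4), 2.33 (Chil1) and 2.12 (Thbs1), and Gpnmb, a lysosomal glycoprotein, by 1.33. BC018473 changed by -1.86, since its rise was larger at 0 h than at 24 h.

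Mitotic genes changed by -1.85 (Cenpe), -1.82 (Ncapg), -1.89 (Mastl), -1.78 (Top2a), -0.94 (Cep55), -1.67 (Ncapg2), -1.86 (Cdk1) and -1.81 (Mki67). The cyclin gene Ccne2 changed by -1.89, Myc by -0.99 and the survival gene Bcl2l1 by -0.82. The TIM family genes Timd2 and Havcr1 changed by -2.49 and -1.02. Jchain changed by 2.95, as its wild type level fell, and the death receptor gene Fas by 1.17. Other cell cycle genes changed by -1.67 (Ccne1), -1.34 (Gins1), -1.92 (Rrm2), -1.62 (Exo1), -1.67 (Kif4) and -1.33 (Birc5), and the CDK inhibitor gene Cdkn2b by 0.90. Growth and metabolic genes changed by -1.11 (Rrs1), -0.93 (Rrp1b), -0.82 (Mir17hg), -0.68 (Hk2), -0.93 (Shmt1), -1.05 (Slc7a5), -0.71 (Fasn) and -0.73 (Hspd1), against 1.43 for Slc7a11. The Myc antagonists changed by 1.22 (Mxd4) and 1.01 (Mxd1), and the histone genes by 1.99 (H2bc4) and -1.45 (H1f5).

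Genes of quiescence and trafficking changed by 1.40 (S1pr1), 1.13 (Klf2), 1.32 (Bcl6), 0.82 (Txnip), 0.93 (Btg2), 1.73 (Cxcr4), 0.64 (Itga4) and 1.55 (Ccr9). Signalling and surface genes changed by 1.62 (Cd80), 0.79 (Ltb), 0.81 (Map3k14), 1.01 (Lair1), 0.77 (Pecam1), 1.18 (Socs2), 1.14 (Dusp5), 1.30 (Rnf128), 1.09 (Lag3), 0.86 (Tnfrsf9), 1.68 (Tnfrsf1a), 0.80 (H2-Ob), 0.88 (Basp1) and 1.10 (Sdc1). The change was 0.99 for Bmf, 1.30 for Trp53inp1 and -1.13 for Ifih1. Genes of other cell types changed by 2.38 (Il1b), 1.94 (Ccl5), 2.02 (Cd28), 1.64 (Cd3g), 2.21 (Klrd1), 1.14 (Siglech), 2.72 (Ppbp), 1.72 (Kit) and 0.99 (Ctsl). Groups of 2 arrays are too small for a test of single arrays that stand apart.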

How the results depend on the processing

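With the replicate block 3442 genes were called at 24 h (1760 higher, 1682 lower) and 2633 in the change from 0 h, and on the 4 arrays at 24 h with the block 4928 (2391 higher, 2537 lower). The block ended no call of a named gene, and where it gave a call its value stands beside the result. Quantile normalization gave 2379 calls (1409 higher, 970 lower) and 1704 in the change from 0 h, and centring each array on its median gave 2445 (1276 lower) and 1764. These scalings moved the median difference by 0.023 and -0.018. Calls of at least 2-fold numbered 295 (229 higher, 66 lower), and 538 in the change from 0 h. Leaving out 1 array at 24 h gave 699 to 1172 calls, 430 to 574 higher and 142 to 651 lower. The change from 0 h ranged from 683 to 957 genes with an array left out; 683 is without TAK1-deleted replicate 2. The other filters, probe set rules and variance models, array weights and the unblocked fit on 4 arrays kept these counts within 1.5 times. The change from 0 h could not be fitted on the 24 h arrays alone. The cause of these shifts was not tested.

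No called gene of the text reversed under any alternative run. Uncalled genes turned sign with 1 array left out, where the lone array of a group is taken to vary like the other groups. The difference ranged from -0.04 (without wild type replicate 2) to 0.25 for Map3k7, from -0.08 (the same array) to 0.09 for Rel, from -0.03 to 0.26 for Mcl1, from -0.03 to 0.34 for Cd69 and from -0.13 to 0.27 for Dusp4. Rel and Dusp4 were also at -0.04 without TAK1-deleted replicate 1. It ranged from -0.04 to 0.08 for Nfkb2, from -0.06 to 0.02 for Cd83, from -0.34 to 0.11 for Il10 and from -0.31 to 0.07 for Prdm1. Rel was at -0.01 under quantile normalization and at -0.01 under centring, and Cd83 at 0.02 under quantile normalization. Of 169 called genes named by the rule 20 lost the call without the filter on dim probe sets, 4 under quantile normalization, 6 under centring, 10 in the fit on 4 arrays and 4 without the intensity trend. With an array left out 57 lost it without wild type replicate 1, 57 without TAK1-deleted replicate 2, 49 without TAK1-deleted replicate 1 and 28 without wild type replicate 2. Of 23 uncalled ones 4 gained a call with the block, 9 with the block on the 4 arrays at 24 h, 1 on these arrays without it, 4 under quantile normalization, 2 under centring and 1 with array weights. Probe sets near the background limit what can be seen of dim genes.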

Other observations

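Gene groups outside the comparisons above gave these values at 24 h, when 7.04% of all genes were called higher and 5.18% lower. Of 20 replication-dependent histone genes 4 were called higher (20%) and 1 lower (5%). The higher ones numbered 2 without each 24 h array other than wild type replicate 1. H2bc4 read 7.49 and 7.53 in wild type and 9.51 and 9.52 in TAK1-deleted cells (2.01 ± 0.18). The lower one, H1f5, fell by 0.77 ± 0.18 and lost its call without wild type replicate 1 and without TAK1-deleted replicate 2. Of 18 TNF receptor family genes 3 were higher (16.7%) and 3 lower (16.7%). Tnfrsf1a, the main receptor for TNF, read 7.69 and 7.67 against 8.82 and 8.78 (1.12 ± 0.16), and Tnfsf14, which encodes the ligand LIGHT, 9.14 and 8.81 against 8.01 and 7.91 (-1.01 ± 0.15). Of 22 p53 targets 5 were higher (22.7%) and 1 lower (4.55%). The largest rise was that of Trp53inp1, an autophagy and stress gene, at 9.72 and 9.49 against 10.75 and 10.79 (1.17 ± 0.11). The higher p53 targets numbered 3 without wild type replicate 1, 3 without wild type replicate 2 and 2 without TAK1-deleted replicate 1. The p53 target called lower lost its call whichever 24 h array was left out.

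Of 10 heat shock genes 3 were lower (30%, against 5.18% of all genes) and 0 higher. Hspd1, the mitochondrial chaperonin, read 12.62 and 12.37 against 11.79 and 11.66 (-0.78 ± 0.13). Of 25 genes of the unfolded protein response 2 were lower, a share of 8% that is near the 5.18% of all genes. The count was 0 without wild type replicate 1 or TAK1-deleted replicate 2, 1 without TAK1-deleted replicate 1, and 15 with the replicate block. Of 16 MHC class II genes 2 were higher (12.5%, against 7.04% of all genes), and 1 without wild type replicate 2 or TAK1-deleted replicate 1. H2-Ob, a chain of the peptide-loading inhibitor, read 11.69 and 11.57 against 12.36 and 12.35 (0.73 ± 0.10). Among B cell subset markers 1 of 4 follicular (25%), 3 of 12 marginal zone (25%) and 1 of 6 transitional genes (16.7%) were higher and 0 lower. Without TAK1-deleted replicate 1 none of these kept its call, and without wild type replicate 2 or TAK1-deleted replicate 2 the follicular gene lost it and 1 marginal zone gene was called. Of 12 B-1 cell markers 3 were higher (25%) and 2 lower (16.7%), and the lower ones lost their calls whichever 24 h array was left out. Of 6 stromal or endothelial markers 1 was higher (16.7%), Pecam1. With the replicate block the higher genes numbered 6 for the TNF receptor family, 2 for heat shock, 1 for the unfolded protein response, 4 for MHC class II, 5 for marginal zone, 2 for transitional and 5 for B-1 markers, and 2 p53 targets were lower.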
